A study of Homo sapiens with 39 samples.

Results

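The genes described here encode an autocrine cytokine loop of B cell lymphoma: the cytokines IL10 and IL6, the IL-10 receptor chains IL10RA and IL10RB, the transcription factor STAT3, its feedback inhibitor SOCS3, and the serine/threonine kinases PIM1, PIM2 and PIM3. They were chosen by name, and not by their values, as the rows of the count table whose Ensembl gene ID maps to one of these symbols. All 9 were found among the 15808 genes of the table, and 8 of them were among the 12814 genes that passed the filter on low counts and were tested. IL6 did not pass and is described by its counts.

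The libraries came from 4 established human B cell lymphoma lines, each in 3 libraries per group. OCILy10 and TMD8 are known as lines of the activated B cell type, and DOHH2 and Toledo as lines of the germinal centre type. The types are background knowledge and are not in the labels. All were exposed for 6 h to the solvent DMSO or to a drug. OTX015, also called birabresib, blocks BET protein bromodomains, and NEO2734 blocks these and the bromodomain of CBP/p300. A further drug, CB103, which interferes with transcription by the Notch complex, was given to OCILy10 alone. This made 13 groups and 39 libraries. The labels give no doses, and a treatment text shared by the samples names other compounds and a longer time than each sample's own label, which was used here. Each line stands for 1 tumour. Whether replicate libraries were separate cultures is not in the labels, so a p-value measures the spread between these libraries, which may be technical.

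In this loop, a secreted cytokine binds its receptor on the same cell. Janus kinases bound to the receptor chains then phosphorylate STAT3, which enters the nucleus and switches on its targets, SOCS3 and PIM1 among them. SOCS3 blocks gp130, the signalling chain of the IL-6 receptor, and so limits the signal, while PIM kinases, which need no activation step once made, favour growth and survival. Lymphomas of the activated type are known for chronic NF-kB and MYD88 signalling, which switches on transcription of IL6 and IL10, and for phosphorylated STAT3. RNA levels do not show whether STAT3 was phosphorylated or whether a cytokine was secreted.

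The bases just upstream of the start sites of IL10 and IL6 are shown because both cytokine genes had lower levels in every treated TMD8 library than in any of its controls. Both are RefSeq promoter sequences on GRCh38.p14, cut to the 250 bases before the transcript start and written 5′ to 3′ on the gene's strand. Capitals mark a match to the kB consensus, the DNA motif bound by NF-kB, on either strand.
IL10, chr1:206772495-206772744, minus strand: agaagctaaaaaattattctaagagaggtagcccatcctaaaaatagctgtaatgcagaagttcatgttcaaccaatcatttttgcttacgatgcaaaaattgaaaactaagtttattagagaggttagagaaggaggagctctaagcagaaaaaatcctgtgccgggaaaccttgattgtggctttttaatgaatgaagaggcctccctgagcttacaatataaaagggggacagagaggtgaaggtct
IL6, chr7:22726950-22727199, plus strand: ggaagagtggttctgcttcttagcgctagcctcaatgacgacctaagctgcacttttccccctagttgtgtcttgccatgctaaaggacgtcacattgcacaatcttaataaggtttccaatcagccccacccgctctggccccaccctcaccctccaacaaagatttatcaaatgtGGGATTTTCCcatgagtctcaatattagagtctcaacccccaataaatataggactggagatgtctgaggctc
The IL6 window held 1 kB match, GGGATTTTCC, which begins at position -73 from the start site, and the IL10 window held none. Neither window held the STAT motif TTCNNNGAA, which reads the same on both strands. Of 35116 such promoter windows, 5.21% held a kB match and 6.57% a STAT match. A match is a description of the letters and says nothing about binding in these cells.

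By GENCODE 29 on GRCh38, all 9 genes are protein coding. IL10 lies on chromosome 1 from 206767602 to 206772494, and IL6 on chromosome 7 from 22725884 to 22732002. IL10RA lies on chromosome 11 from 117986348 to 118003037, and IL10RB on chromosome 21 from 33266358 to 33310187. STAT3 (42313324 to 42388568) and SOCS3 (78356778 to 78360077) both lie on chromosome 17. PIM1 is on chromosome 6 from 37170203 to 37175426, PIM2 on chromosome X from 48913182 to 48919024, and PIM3 on chromosome 22 from 49960513 to 49964080. IL6 overlaps STEAP1B and an antisense gene, IL10RB overlaps the gene AP000295.1 on the same strand, and PIM3 holds the microRNA gene MIR6821. Since the strandedness of the counting is not given in the sources used here, reads of IL6 and of its overlapping genes cannot be told apart.

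Library totals ranged from 1000281 to 11668542 counts, with 24 libraries of at most 3420458 and 15 of at least 6670250. Levels are CPM, counts scaled to the library's total and its TMM factor. B cell markers fitted the label in all lines: the median level over a line's libraries ran among the 4 lines from 288 to 667 CPM for CD79A and from 45.5 to 474 CPM for CD79B, the signalling chains of the B cell receptor. Of 6 T cell markers, CD2 and CD5 were in the table, and of 6 monocyte markers, LYZ, CSF1R and ITGAM. Their medians were at most 8.62 CPM in any line, and that highest value was CD5 in OCILy10. The type markers were less clear. Among 7 of the activated type, IRF4 had a median of 800 CPM in DOHH2 against 645 in OCILy10 and 712 in TMD8. TNFRSF13B had 199, 160 and 154 CPM in the same order, while CYB5R2 had 0, 176 and 72.2. In DMSO 6 of these 7 were higher in the activated lines (adjusted p under 0.05) and 0 lower, where 14% of all tested genes were higher and 15% lower. Of 6 tested germinal centre markers, 3 were lower there and 0 higher. MME had 15.9 CPM in DOHH2 and 225 in Toledo, against 1.49 in OCILy10 and 0 in TMD8. MYBL1 went the other way in DOHH2, with 1.69 CPM against 4.79 in OCILy10 and 5.26 in TMD8. SERPINA9 had 2.45 CPM in TMD8 and 0 in Toledo.

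In part, 3 libraries went against their labels. They held genes that were otherwise private to another line. In Toledo DMSO replicate 2 the 10 genes private to OCILy10 stood at a median of 72.2% of their level in OCILy10, and the 13 private to Toledo at 37.0% of their level in Toledo. In OCILy10 CB103 replicate 2 the Toledo genes stood at 25.8%, and in DOHH2 NEO2734 replicate 3 the OCILy10 genes at 10.6%. In the other 36 libraries no other line's genes exceeded 2.17%. The private genes were defined from these same 36 libraries, so that a low value there follows largely from the definition. For the main results that rest on the 3 libraries, values without them are also given. The fit shares its estimate of the spread over all libraries, so the 3 also enter the SE of changes in the other lines.

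In DMSO the activated type lines carried much more RNA of IL10, IL10RA, STAT3, SOCS3 and PIM1 than the germinal centre lines, and somewhat more PIM2, whereas IL10RB and PIM3 did not pass the test. With edgeR's quasi-likelihood test and Benjamini-Hochberg adjustment over all genes tested, 6 of the 8 tested members were higher (adjusted p under 0.05) and 0 were lower, while 14% of all tested genes were higher and 15% lower, 29% in all. The median log2 difference over the 8 members was 1.89, and over all tested genes it was -0.04. The members were picked for this report as genes known from the activated type, so that the count is a description of that choice.

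**Figure D1:**
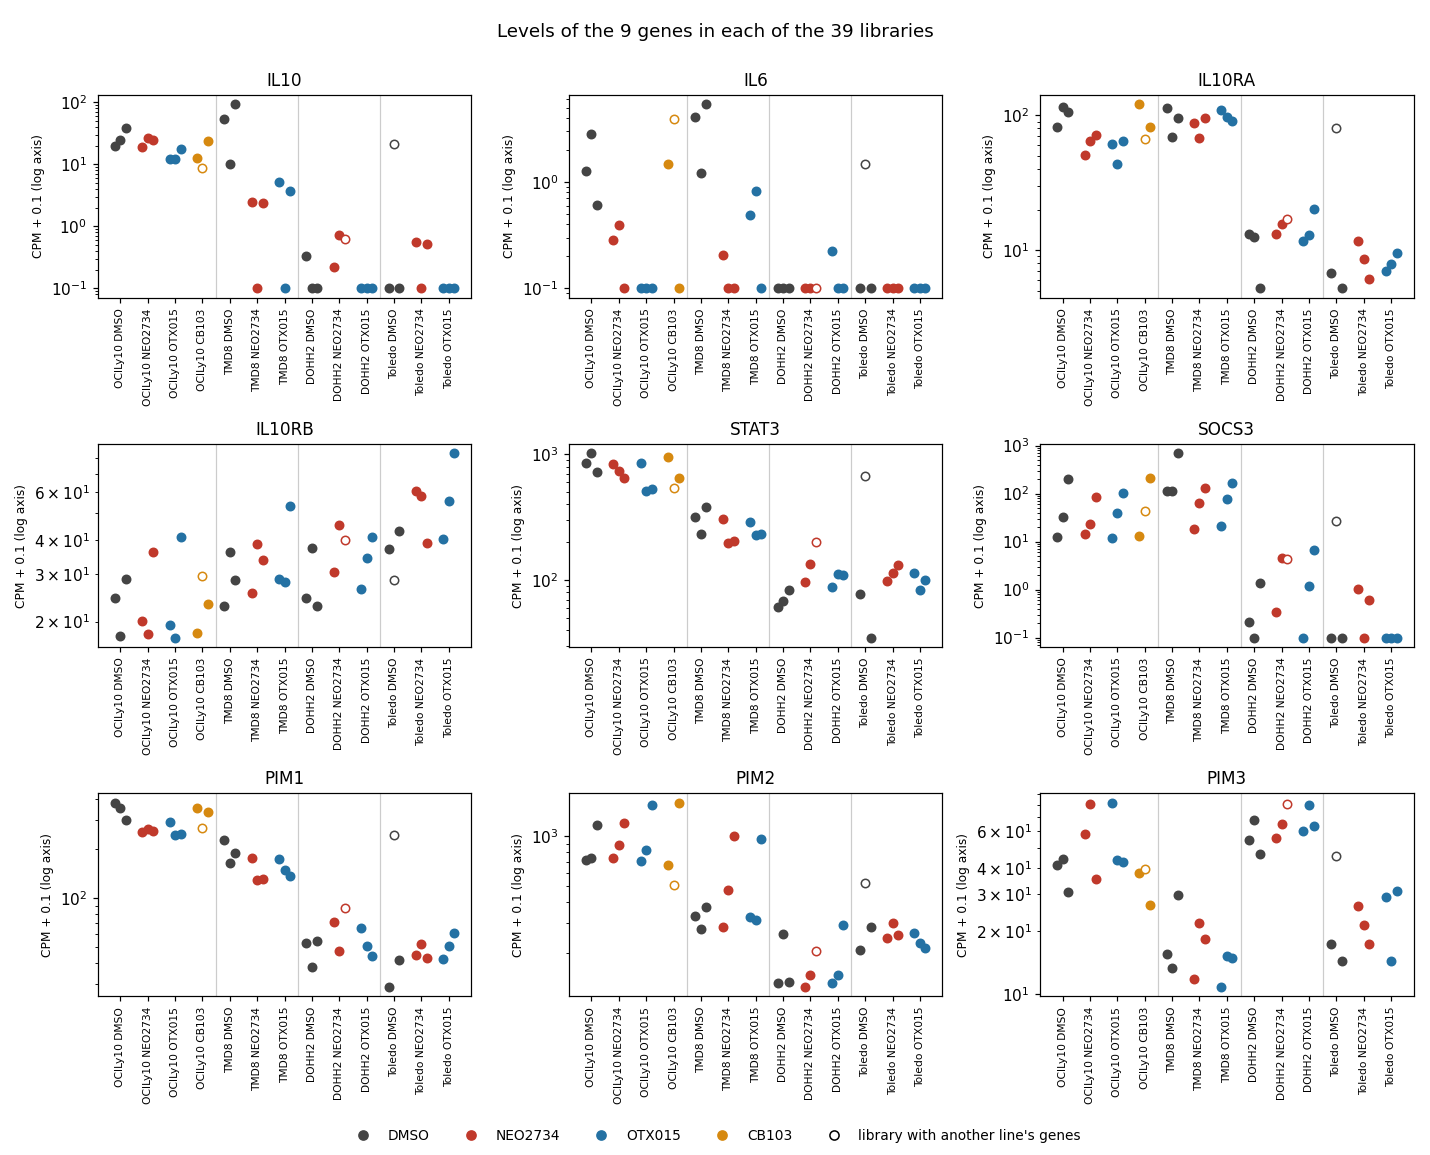
CPM of each of the 9 genes in each of the 39 libraries, as CPM plus 0.1 on a log axis, by line and treatment. Points are libraries, colours are treatments, and open points are the 3 libraries with another line's genes. IL10, SOCS3, STAT3, PIM1 and IL10RA sit high in OCILy10 and TMD8, and Toledo DMSO replicate 2 is the single Toledo library at OCILy10-like levels.

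IL10, the anti-inflammatory cytokine, had 20.0, 24.9 and 38.7 CPM in the 3 OCILy10 DMSO libraries and 53.5, 9.97 and 93.2 CPM in those of TMD8. In DOHH2 the values were 0.227, 0 and 0 CPM, which is 2 counts in all, and in Toledo they were 0, 21.3 and 0 CPM. The activated lines and the germinal centre lines therefore did not overlap once Toledo DMSO replicate 2 was set aside. The share of all tested genes that also separated in this way was not counted. The log2 difference between the types was 5.05 ± 0.98 (SE, adjusted p = 0.000286) with all libraries and 9.09 ± 1.05 (adjusted p = 3.84e-07) without Toledo replicate 2, a fitted value that depends on the prior count because Toledo then had no IL10 count. In summed counts, the level of OCILy10 was 143 times that of DOHH2 (95% exact interval of counting 39.4 to 1186) and that of TMD8 was 323 times (89.0 to 2668). Without replicate 2 Toledo had 0 counts, and against a floor of 3 counts over both remaining libraries IL10 was at least 58.2-fold higher in OCILy10 and at least 131-fold higher in TMD8.

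IL6, the other cytokine of the loop, was scarce everywhere. It had 1.17, 2.74 and 0.502 CPM in OCILy10 DMSO and 3.99, 1.11 and 5.29 CPM in TMD8 DMSO, from 31 and 50 counts. All 3 DOHH2 DMSO libraries and Toledo replicates 1 and 3 had 0 counts, and Toledo replicate 2 had 1.37 CPM. Against the floor of 3 counts, the OCILy10 level was at least 6.76-fold higher than that of DOHH2 and the TMD8 level at least 15.2-fold higher.

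IL10RA, the ligand-binding chain of the IL-10 receptor, had 82.1, 116 and 106 CPM in OCILy10 and 112, 68.7 and 95.6 CPM in TMD8. DOHH2 had 13, 12.4 and 5.17 CPM, and Toledo 6.63, 81.1 and 5.12 CPM. Its log2 difference between the types was 2.40 ± 0.39 (adjusted p = 2.35e-05), and 3.59 ± 0.25 without Toledo replicate 2. IL10RB, the signalling chain that the IL-22 and type III interferon receptors share, had means of 23.5 ± 5.57 CPM in OCILy10, 29 ± 6.70 in TMD8, 28.0 ± 7.94 in DOHH2 and 36.1 ± 7.31 in Toledo (SD, n = 3). Its log2 difference between the types was -0.28 with a 95% interval of -0.79 to 0.22 (adjusted p = 0.444), and -0.36 ± 0.26 (adjusted p = 0.323) without Toledo replicate 2.

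STAT3 had 856, 1017 and 726 CPM in OCILy10 and 315, 234 and 383 CPM in TMD8. The DOHH2 libraries had 61.0, 68.1 and 84.1 CPM, and those of Toledo 77, 676 and 34.8 CPM. With all libraries STAT3 differed between DOHH2 and Toledo (adjusted p = 0.0111) and not past the threshold between TMD8 and Toledo (adjusted p = 0.817). Without Toledo replicate 2 these turned about: TMD8 lay above Toledo by 2.44 ± 0.35 log2 (adjusted p = 5.67e-06), and DOHH2 and Toledo did not differ past the threshold (adjusted p = 0.569). The difference between the types was 1.92 ± 0.39 log2 (adjusted p = 0.000295), and 3.02 ± 0.24 without that library. OCILy10 lay above TMD8 by 1.48 ± 0.54 log2 (adjusted p = 0.0476).

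SOCS3, the feedback inhibitor, had 12.2, 33.1 and 201 CPM in OCILy10 and 113, 115 and 684 CPM in TMD8, while DOHH2 had 0.113, 0 and 1.29 CPM and Toledo 0, 26.2 and 0 CPM. In both activated lines replicate 3 stood far above the other replicates. The difference between the types was 6.52 ± 1.29 log2 (adjusted p = 0.00029) with all libraries and 10.74 ± 1.79 (adjusted p = 3.42e-05) without Toledo replicate 2, which depends on the prior count in the same way. In summed counts OCILy10 stood at 162 times the DOHH2 level (55.3 to 789) and TMD8 at 813 times (278 to 3945), from 3 counts in DOHH2. Without its replicate 2 Toledo had 0 counts, so that SOCS3 was at least 99.1-fold higher in OCILy10 and at least 496-fold higher in TMD8.

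PIM1, a target of STAT3, had 382, 352 and 301 CPM in OCILy10, 225, 163 and 187 CPM in TMD8, 53.4, 37.7 and 54.3 CPM in DOHH2 and 28.6, 242 and 42.0 CPM in Toledo. The difference between the types was 1.85 ± 0.30 log2 (adjusted p = 2.01e-05), and 2.65 ± 0.18 without Toledo replicate 2. PIM2, the PIM kinase best known from B cells and plasma cells, had 717, 733 and 1170 CPM in OCILy10 and 331, 277 and 376 CPM in TMD8. DOHH2 had 131, 259 and 133 CPM of PIM2, and Toledo had 209, 526 and 283 CPM. Its difference between the types was 1.14 ± 0.34 log2 (adjusted p = 0.0103), and 1.37 ± 0.35 (adjusted p = 0.00293) without Toledo replicate 2. With all libraries TMD8 differed neither from DOHH2 (adjusted p = 0.163) nor from Toledo (adjusted p = 0.967) past the threshold.

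PIM3 had another order of lines. DOHH2 had its highest level, with 54.4, 68.1 and 46.6 CPM, against 41.1, 44.1 and 30.6 in OCILy10, 15.5, 13.3 and 29.8 in TMD8 and 17.2, 45.6 and 14.3 in Toledo. The types did not differ past the threshold (log2 difference -0.48 ± 0.27, adjusted p = 0.193, and -0.13 ± 0.25 without Toledo replicate 2), but the 4 lines did by an F-test (adjusted p = 0.00679). That F-test passed in 20 of 22 alternatives, with an adjusted p of up to 0.127. DOHH2 exceeded TMD8 by 1.53 ± 0.39 log2 (adjusted p = 0.00308) and Toledo by 1.10 ± 0.38 (adjusted p = 0.0349), and the latter difference was 1.81 ± 0.40 without Toledo replicate 2. By the same F-test 7 of the 8 members differed among the lines, all but IL10RB, and 48.1% of all tested genes did.

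**Figure D2:**
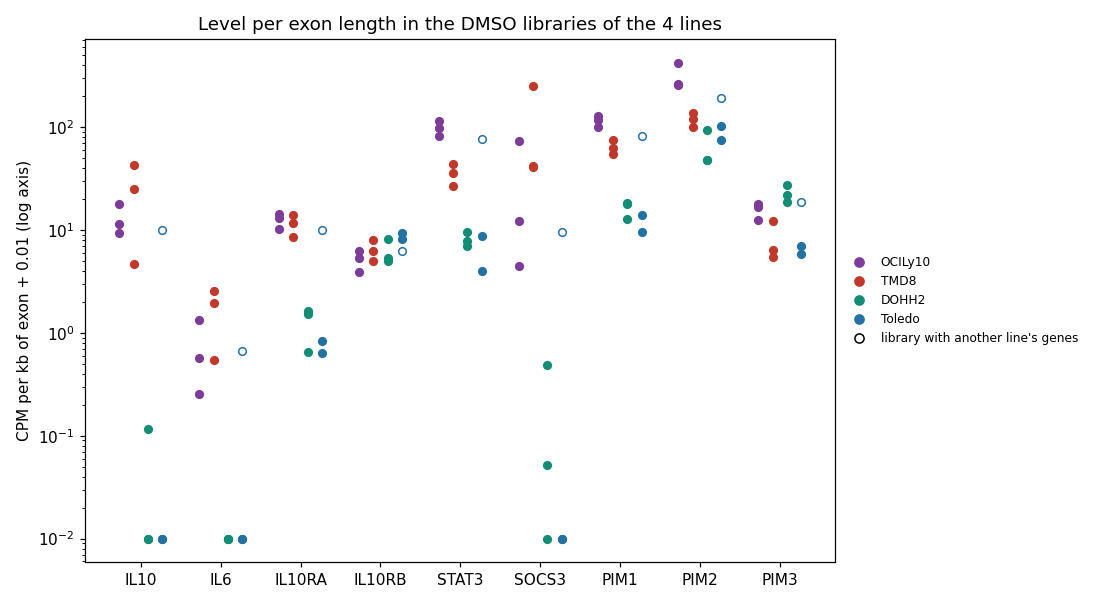
Level of each gene in the DMSO libraries, as CPM per kilobase of exon plus 0.01 on a log axis, so that genes can be compared with each other. Points are the 3 libraries of each line, and the open point is Toledo DMSO replicate 2. PIM2 is the highest of the 9 genes in OCILy10, with a mean of 316 CPM per kilobase, and IL6 the lowest, with 0.710.

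Per kilobase of exon, the order within OCILy10 DMSO was PIM2 (316 ± 93.0 CPM per kilobase), PIM1 (116 ± 13.8), STAT3 (98.3 ± 16.5), SOCS3 (30.0 ± 37.8), PIM3 (15.7 ± 2.87), IL10 (12.9 ± 4.48), IL10RA (12.5 ± 2.15), IL10RB (5.16 ± 1.22) and IL6 (0.710 ± 0.554; SD, n = 3). The libraries of PIM1 and STAT3 overlapped, as did those of SOCS3, PIM3, IL10 and IL10RA. In DOHH2, PIM2 was again first with 63.2 ± 26.4 and PIM3 second with 22.9 ± 4.42, ahead of PIM1 with 16.3 ± 3.13. Between the activated lines, 2 of the 8 members were called, STAT3 and PIM2, both higher in OCILy10, where 20.8% of all tested genes were called. Without Toledo DMSO replicate 2 in the fit, PIM1 and PIM3 were also called, with adjusted p of 0.00347 and 0.0313.

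Of the genes of this loop, IL10 fell in TMD8 with NEO2734. In the 3 TMD8 DMSO libraries IL10 had 53.5, 9.97 and 93.2 CPM, and in those with NEO2734 it had 2.35, 0 and 2.29 CPM. The groups did not overlap. IL10 fell by 5.00 ± 1.28 on the log2 scale (SE, adjusted p = 0.0366), from 708 counts to 25, a ratio of 0.0358 (95% exact interval of counting 0.0230 to 0.0533). Of the 8 tested members, 1 was lower and 0 higher with NEO2734 in TMD8, where 2.17% of all tested genes were called. Groups that do not overlap were found for 17.9% of all tested genes there. The call was lost (adjusted p from 0.0701 to 0.18) when TMD8 DMSO replicate 1 or 3 or any single NEO2734 library was left out, each of which leaves a pair of libraries in that group, and it held without the 3 libraries with another line's genes (adjusted p = 0.00384).

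OTX015 gave IL10 values of 5.05, 0 and 3.68 CPM in TMD8, again below all 3 DMSO libraries. The log2 change was -4.02 ± 1.20 and did not pass the test (adjusted p = 0.185), where 0.39% of all tested genes were called and 12.9% had groups that do not overlap. From 708 counts to 46 the ratio was 0.0776 (0.0563 to 0.105). Replicate numbers were taken to pair the libraries in TMD8. Same-numbered libraries there were also of the same depth class, so the check did not separate pairing from depth. With the number as a block the change was -4.18 ± 0.76 (adjusted p = 0.00615). It was also past the threshold without the 3 libraries (adjusted p = 0.0327). The labels do not give doses, so NEO2734 and OTX015 are set side by side without a comparison at matched doses.

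In OCILy10 the IL10 levels with NEO2734 overlapped with DMSO, at 18.9, 27.0 and 24.4 CPM against 20.0, 24.9 and 38.7. The log2 change was -0.24, with a wide 95% interval of -2.38 to 1.89. With OTX015 it had 12.1, 12.1 and 17.8 CPM, all below the DMSO libraries, and a log2 change of -0.99 ± 1.06 (adjusted p = 0.931). Of all tested genes, 12.6% had groups that do not overlap with OTX015 in this line. CB103 gave 12.8, 8.75 and 23.9 CPM, which overlapped with DMSO. The change of IL10 under NEO2734 was not shown to differ among the 4 lines, with an F-test adjusted p of 0.49 (unadjusted p = 0.013) where 0.0156% of all tested genes passed that test. That p became 0.0073 with the replicate number as a block and without the 3 libraries, a setting chosen after the data were seen. This test includes NEO2734 in Toledo, where the check of pairing by replicate number was not met.

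IL6 had fewer counts in TMD8 and in OCILy10 with both bromodomain inhibitors than with DMSO. In TMD8 the 50 counts with DMSO stood against 1 with NEO2734 (ratio 0.0203, 95% exact interval 0.000504 to 0.118) and 4 with OTX015 (ratio 0.0955, 0.0251 to 0.260). In OCILy10 the 31 counts with DMSO stood against 4 with NEO2734 (ratio 0.118, 0.0303 to 0.334), 0 with OTX015, which is at least 8.33-fold lower, and 26 with CB103 (ratio 1.00, 0.572 to 1.75). With either bromodomain inhibitor the IL6 levels of all treated libraries lay below those of all DMSO libraries in both lines, whereas with CB103 they overlapped. Groups that do not overlap were found for 17.9% of all tested genes with NEO2734 and 12.9% with OTX015 in TMD8. In OCILy10 these shares were 20% and 12.6%. The lowest OCILy10 DMSO library had 0.502 CPM of IL6, against at most 0.290 with NEO2734, and such levels rest on very few counts. Fitted without a filter on low counts, none of these IL6 changes passed the threshold over all genes (adjusted p = 0.0843 for NEO2734 in TMD8 and 0.272 for OTX015 in OCILy10). These intervals cover counting error only and not the spread between cultures.

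**Figure D3:**
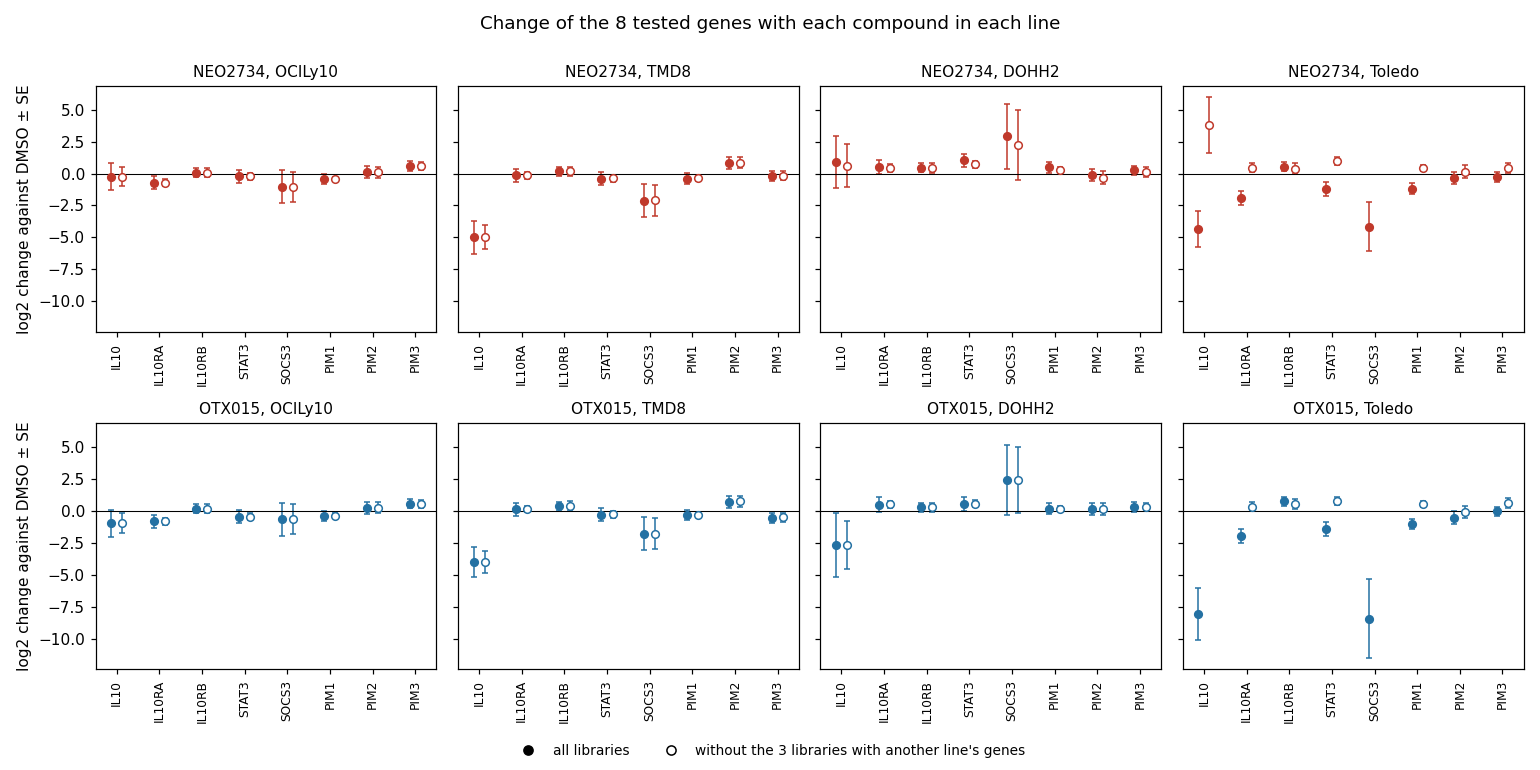
Log2 change of the 8 tested genes against DMSO with NEO2734 (top) and OTX015 (bottom) in each line, with the standard error as bars. Filled points use all libraries and open points leave out the 3 libraries with another line's genes. In TMD8 the IL10 change is -5.00 with NEO2734 and -4.02 with OTX015, and in Toledo the filled and open points lie apart. Points that could not be fitted, with 0 counts in both groups or a standard error above 5, are not drawn.

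SOCS3 in TMD8 had 113, 115 and 684 CPM with DMSO, 18.3, 63.9 and 130 CPM with NEO2734 and 21.4, 76.7 and 162 CPM with OTX015. The ranges overlapped, since replicate 3 was the highest library with each treatment. Its log2 changes of -2.13 ± 1.30 with NEO2734 (adjusted p = 0.607) and -1.82 ± 1.29 with OTX015 (adjusted p = 1) did not pass the test. Read within replicate numbers, the level with NEO2734 was 0.163, 0.554 and 0.190 times that with DMSO, and with OTX015 it was 0.189, 0.666 and 0.237 times. With the number as a block the NEO2734 change was -2.04 ± 0.52 and passed the test (adjusted p = 0.0228), while the OTX015 change was -1.78 ± 0.52 (adjusted p = 0.0938). This block takes the numbers as pairs, which the check did not separate from depth. Without TMD8 DMSO replicate 3 and without a block, the NEO2734 change was -0.71 (adjusted p = 1).

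In OCILy10 SOCS3 had 14.3, 23.1 and 83.1 CPM with NEO2734, 12, 39.2 and 102 CPM with OTX015 and 13.1, 43.0 and 212 CPM with CB103, against 12.2, 33.1 and 201 CPM with DMSO. Replicate 3 was the highest with every treatment in this line too. The within-number ratios with NEO2734 were 1.17, 0.696 and 0.414, so that they lay on both sides of 1. None of the 3 compounds gave a change past the threshold (adjusted p from 0.957 to 1).

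PIM2 shared this pattern of a high replicate 3. In OCILy10 it had 1170 CPM in replicate 3 with DMSO, 1187 with NEO2734, 1536 with OTX015 and 1582 with CB103, and between 507 and 881 CPM in replicates 1 and 2. In TMD8 replicate 3 had 999 CPM with NEO2734 and 957 with OTX015 but 376 with DMSO. Its changes in TMD8 were 0.83 ± 0.47 log2 with NEO2734 (adjusted p = 0.552) and 0.70 ± 0.47 with OTX015 (adjusted p = 0.989), and 1 library of 3 carried most of each. Replicate 3 was a library of at most 3420458 counts in each of these groups, and the part of depth in this pattern was not tested.

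**Figure D4:**
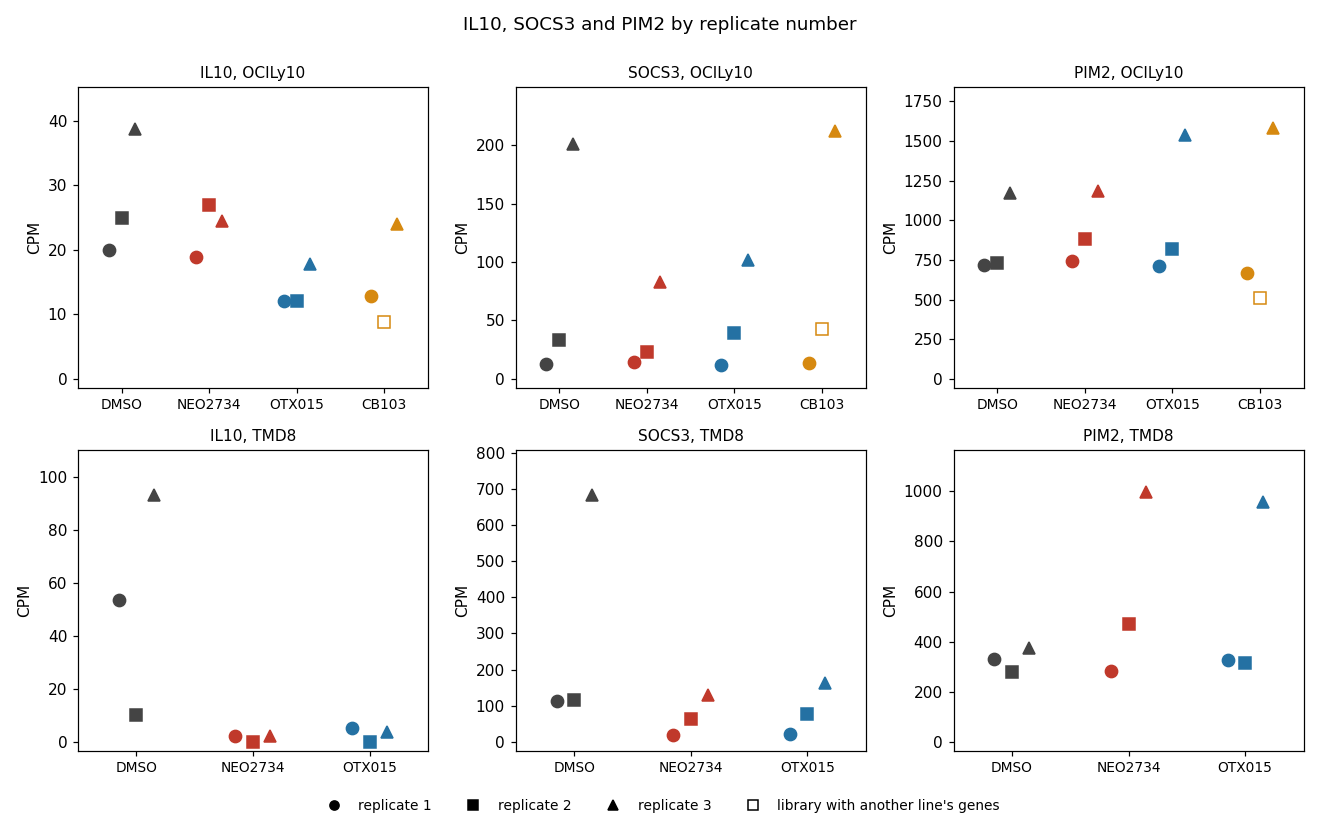
CPM of IL10, SOCS3 and PIM2 in each library of OCILy10 (top) and TMD8 (bottom) by treatment. Marker shapes are replicate numbers and the open square is a library with another line's genes. Replicate 3 is the highest SOCS3 library with every treatment in both lines, and IL10 lies near 0 in all treated TMD8 libraries.

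With NEO2734 in OCILy10, IL10RA had 50.7, 64.2 and 70.9 CPM against 82.1, 116 and 106 with DMSO, and PIM1 had 254, 262 and 257 CPM against 382, 352 and 301. Both genes were below DMSO in every library, as were both with OTX015. None of these changes passed the test: the log2 changes with NEO2734 were -0.71 ± 0.52 for IL10RA (adjusted p = 0.747) and -0.42 ± 0.41 for PIM1 (adjusted p = 0.877), and with OTX015 they were -0.83 ± 0.52 (adjusted p = 0.805) and -0.41 ± 0.41 (adjusted p = 0.919). SEs were smaller with the replicate number as a block and without the 3 libraries, a setting chosen after the data were seen. There IL10RA changed by -0.72 ± 0.26 with NEO2734 and -0.83 ± 0.27 with OTX015 (adjusted p = 0.113 and 0.105). PIM1 changed by -0.42 ± 0.14 and -0.41 ± 0.14 (adjusted p = 0.0714 and 0.119). In OCILy10 the check of pairing by replicate number was met with NEO2734 but not with OTX015 (r from -0.582 to 0.697). Groups that do not overlap were found for 20% of all tested genes with NEO2734 in OCILy10 and for 12.6% with OTX015. STAT3 in OCILy10 changed by -0.22 ± 0.52 log2 with NEO2734 and by -0.46 ± 0.53 with OTX015, and PIM2 by 0.10 ± 0.47 and 0.23 ± 0.47, with intervals that included 0. In OCILy10 0 of 8 members were called with either compound, where 1.01% of all tested genes were called with NEO2734 and 0.0702% with OTX015.

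In TMD8, IL10RA, STAT3 and PIM1 overlapped with DMSO under both compounds. STAT3 changed by -0.39 ± 0.53 log2 with NEO2734 (95% interval -1.47 to 0.68) and by -0.32 ± 0.53 with OTX015, and PIM1 by -0.40 ± 0.41 and -0.34 ± 0.41. All of these intervals included 0 in the fit with all libraries. With the replicate number as a block and without the 3 libraries, the SEs were smaller. In that setting PIM1 changed by -0.39 ± 0.14 with NEO2734 and -0.31 ± 0.14 with OTX015 (adjusted p = 0.101 and 0.332). STAT3 changed by -0.38 ± 0.23 and -0.28 ± 0.23 (adjusted p = 0.386 and 0.715).

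In DOHH2 the STAT3 level of every library with either bromodomain inhibitor lay above all DMSO libraries. It had 96.8, 133 and 202 CPM with NEO2734 and 88.2, 112 and 109 CPM with OTX015, against 61.0, 68.1 and 84.1 CPM with DMSO. The NEO2734 library with 202 CPM was replicate 3, which held OCILy10 genes. The log2 changes were 1.02 ± 0.54 (adjusted p = 0.387) and 0.54 ± 0.54 (adjusted p = 1), and without the 3 libraries the NEO2734 change was 0.71 ± 0.30 (adjusted p = 0.28). With Toledo DMSO replicate 2 alone left out it was 1.02 ± 0.29 (adjusted p = 0.0436). No member was called in DOHH2 with all libraries, where 2.9% of all tested genes were called with NEO2734 and 0.125% with OTX015, and groups that do not overlap made up 18.4% and 13.5% of genes. IL10RA with NEO2734 had 13.1, 15.6 and 17.0 CPM, against 13, 12.4 and 5.17 with DMSO. PIM1 in DOHH2 changed by 0.50 ± 0.42 log2 with NEO2734 and by 0.15 ± 0.42 with OTX015, and PIM2 by -0.13 ± 0.47 and 0.13 ± 0.47, and neither passed the test.

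IL10 and SOCS3 had few counts in DOHH2 with each treatment. IL10 had 2 counts with DMSO, 3 with NEO2734 and 0 with OTX015. SOCS3 had 3 counts with DMSO, 17 with NEO2734 (ratio 5.78, 95% exact interval of counting 1.67 to 30.8) and 11 with OTX015 (3.88, 1.03 to 21.7), with log2 changes that did not pass the test (adjusted p = 0.715 and 1). DOHH2 NEO2734 replicate 3, the library with OCILy10 genes, held 8 of the 17 SOCS3 counts and 1 of the 3 IL10 counts. Without it SOCS3 had 9 counts with NEO2734, a ratio of 3.64 with an interval of 0.909 to 20.9 that includes 1.

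In Toledo the values turn on DMSO replicate 2. With all libraries, 1 of 8 members was lower with NEO2734, IL10RA with -1.91 ± 0.57 log2 (adjusted p = 0.042), and 2 were lower with OTX015, IL10RA with -1.998 ± 0.57 (adjusted p = 0.0489) and IL10 (adjusted p = 0.0314), which went from 78 counts to 0. Of all tested genes 5.47% were called with NEO2734 and 3.09% with OTX015. All 78 counts of IL10 were in Toledo DMSO replicate 2. Without this library 0 of 8 members were called with either compound, and the IL10RA changes were 0.47 (adjusted p = 0.993) and 0.39 (adjusted p = 0.937). IL10RA had 11.7, 8.44 and 5.97 CPM with NEO2734 and 6.95, 7.84 and 9.37 with OTX015, against 6.63 and 5.12 in DMSO replicates 1 and 3.

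STAT3 in Toledo had 77 and 34.8 CPM in DMSO replicates 1 and 3, 99.2, 114 and 131 CPM with NEO2734 and 114, 82.9 and 99.7 CPM with OTX015. Every treated library exceeded both of these DMSO libraries. Groups of 3 against these 2 libraries did not overlap for 23.8% of all tested genes with NEO2734 and for 22.1% with OTX015. Without DMSO replicate 2 the log2 changes were 1.01 ± 0.33 (adjusted p = 0.189) and 0.79 (adjusted p = 0.585), so that neither passed the test. The difference of the STAT3 response between the types under NEO2734 was -0.22 ± 0.53 with all libraries (adjusted p = 0.9999) and -1.16 ± 0.29 without the 3 libraries (adjusted p = 0.439). With the replicate number as a block as well it was -1.25 ± 0.25 (adjusted p = 0.0453), in the setting chosen after the data were seen. For NEO2734 in Toledo the check of pairing was not met (r from -0.622 to -0.104), so the block is not backed there. With all libraries 0 of 8 members differed in response between the types with either compound, where 0.0156% of all tested genes did with NEO2734 and 0 did with OTX015.

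SOCS3 in Toledo had 96 counts with DMSO, all in replicate 2, 7 with NEO2734 and 0 with OTX015. PIM1 changed by -1.17 ± 0.42 log2 with NEO2734 (adjusted p = 0.098) and by -1.03 ± 0.42 with OTX015 (adjusted p = 0.207), and by 0.43 ± 0.23 and 0.53 ± 0.23 without the 3 libraries (adjusted p = 0.567 and 0.597). PIM2 changed by -0.35 and -0.54, and by 0.13 and -0.10 without the 3 libraries, and no PIM2 change passed the test.

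IL10RB and PIM3 passed the test with no compound in any line. Over the 4 lines and both bromodomain inhibitors, the log2 change of IL10RB ran from 0.06 with NEO2734 in OCILy10 to 0.73 with OTX015 in Toledo (adjusted p of at least 0.341), and that of PIM3 from -0.54 with OTX015 in TMD8 to 0.59 with NEO2734 in OCILy10 (adjusted p of at least 0.651). IL10RB with OTX015 in Toledo had 40.1, 55.5 and 83.1 CPM against 36.8, 28.4 and 43.0 with DMSO, which overlapped.

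Averaged over the 4 lines, 0 of 8 members were called with NEO2734, where 20.5% of all tested genes were, and 1 of 8 with OTX015, where 11.6% were. The member called with OTX015 was IL10, with -3.95 ± 1.06 log2 (adjusted p = 0.0148), and the corresponding NEO2734 value was -2.16 ± 0.83 (adjusted p = 0.0662). The NEO2734 mean of IL10 was -0.14 (adjusted p = 0.87) without Toledo DMSO replicate 2. Its Toledo part was then 3.76, from 5 counts against 0, a size that depends on the prior count. Averaged with the fall in TMD8, this part moves the mean toward 0. The NEO2734 mean of IL10 was called without Toledo DMSO replicate 1 or 3 (adjusted p = 0.023 and 0.0425), where replicate 2 is one of a pair. The other 7 members ran from -1.10 (SOCS3) to 0.31 (IL10RB) with NEO2734 and from -2.13 (SOCS3) to 0.37 (IL10RB) with OTX015. The OTX015 mean rests on groups with 0 counts in DOHH2 and Toledo, whose fitted size depends on the prior count, and on the 78 counts of Toledo DMSO replicate 2. Without this library IL10 was not called (log2 -1.92, adjusted p = 0.9999), nor was it without DOHH2 DMSO replicate 1, the only DOHH2 control with IL10 counts (-3.27, adjusted p = 0.9999). NEO2734 and OTX015 did not differ past the threshold for any of the 8 members, with 0.0312% of all tested genes called. For IL10 this difference was 1.78 log2 with a 95% interval of -0.16 to 3.72, and for STAT3 it was 0.21 with an interval of -0.33 to 0.75.

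CB103 in OCILy10 gave 0 of 8 members and 0% of all tested genes past the threshold by edgeR, where 273 genes had an unadjusted p under 0.05. Over all genes DESeq2 called 27, limma-voom 0, the fit with the replicate number as a block 14, and 16 came from the fit on the other deposited version. The log2 changes ran from -0.90 ± 1.06 for IL10 to 0.11 ± 1.27 for SOCS3, and without the 3 libraries from -0.63 ± 0.87 to 0.44 ± 1.29 for the same genes, with 0 of 8 called. STAT3 had 944, 537 and 646 CPM and PIM1 356, 267 and 334 CPM, which overlapped with DMSO, and the lowest value of each was in replicate 2, the library with Toledo genes.

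Over the 13 group means of log2 CPM, Pearson's r was 0.977 for STAT3 with PIM1 and 0.98 for IL10RA with SOCS3, and 0.981 for both pairs without the 3 libraries. The correlation of IL10 with STAT3 was 0.913 (0.921 without them), and the r of PIM3 with the other 7 tested genes lay between -0.38 and 0.06. The genes most like IL10 were PLEKHA7, DHRS9 and SH2D2A (r of 0.967, 0.956 and 0.955), among 12064 genes compared. Those most like STAT3 were CD9, IGHG3 and PIM1, and those most like SOCS3 were HACD4, PTPN1 and IL10RA. For IL10RA they were HACD4, SOCS3 and CT45A1, for IL10RB CHD6, CCNI and RAB5B, and for PIM1 ZNF385C, DOCK3 and WFDC21P. PIM2 was most like ITGA2, EML4 and R3HCC1L, and PIM3 most like ARHGAP21, FASN and HMOX2. Without the 3 libraries 9 of these 24 names remained among the 3 most alike. The 13 points share their 4 lines, so that these values describe the groups and have no test.

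The other parts of the pathway were read from 5 lists written from textbook knowledge. Among 16 tested JAK-STAT components, 1 rose and 7 fell with NEO2734 in the mean of the lines, where 20.5% of all tested genes were called. Without the 3 libraries 2 rose and 6 fell, where 16.3% of all genes were called. The list's median was -0.42 log2, against -0.02 over all tested genes. STAT6, the IL-4 signal transducer, fell by 0.89 ± 0.16 on the log2 scale (adjusted p = 0.000122), IL21R, the IL-21 receptor, by 1.82 ± 0.36 (adjusted p = 0.00042), and STAT5A by 1.47 ± 0.36 (adjusted p = 0.00404). Without the 3 libraries these 3 falls were 0.82, 1.46 and 0.82 and all stayed past the threshold.

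In DMSO 6 of the 16 components were higher and 3 lower in the activated lines, where 29% of all tested genes were called. JAK3, the kinase bound to the common cytokine receptor gamma chain, was higher by 5.35 ± 0.81 log2 (adjusted p = 1.51e-05), STAT2 by 0.74 ± 0.17 (adjusted p = 0.00123) and IL21R by 1.78 ± 0.49 (adjusted p = 0.00605), while STAT5B was lower by 1.24 log2, at -1.24 ± 0.16 (adjusted p = 9.29e-07). Without the 3 libraries 9 were higher and 1 lower, where 32.9% of all genes were called.

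Of 17 tested brakes of the pathway, 2 rose and 2 fell with NEO2734, with and without the 3 libraries, with a median of 0.11 log2. This share is near the 20.5% of all tested genes. CBL, a ubiquitin ligase, rose by 0.59 ± 0.10 log2 (adjusted p = 0.000147) and PIAS1, a SUMO ligase, by 0.52 ± 0.14 (adjusted p = 0.00712). The phosphatase PTPN6 (SHP-1) fell by 1.21 ± 0.34 on the log2 scale (adjusted p = 0.0116) and PTPRC (CD45) by 0.51 ± 0.17 (adjusted p = 0.035). In DMSO 5 brakes were higher and 2 lower in the activated lines, where 29% of all tested genes were called. Without the 3 libraries 4 were higher and 3 lower, where 32.9% were called. PTPN1, a phosphatase of JAK kinases, was higher by 1.85 ± 0.21 log2 (adjusted p = 1.53e-07) and PTPN2 by 0.86 ± 0.16 (adjusted p = 0.000175), while SOCS2, a relative of SOCS3, differed by -5.05 ± 0.49 (adjusted p = 9.41e-09) and SOCS7 by -1.23 ± 0.23 (adjusted p = 0.000121). SOCS2 and SOCS3 thus lay on opposite sides in these lines.

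Among 20 tested textbook targets of STAT3, 2 rose and 9 fell with NEO2734, with a median of -0.66 log2 against -0.02 over all tested genes, of which 20.5% were called. Without the 3 libraries 2 rose and 7 fell. NFIL3, a leucine zipper factor, rose by 1.15 ± 0.15 log2 (adjusted p = 3.14e-06). The oncogene MYC fell by 1.38 ± 0.22 (adjusted p = 4.39e-05). CCND2 (cyclin D2) fell by 2.47 ± 0.47 (adjusted p = 0.000286) and IL21R, also in the list above, by 1.82. In DMSO the same list was split, with 6 higher and 5 lower in the activated lines, with and without the 3 libraries, where 29% of all tested genes were called. IRF1 (-1.52 ± 0.20), TIMP1 (-3.33 ± 0.75), BIRC5 (-1.24 ± 0.29) and VEGFA (-0.92 ± 0.23) had the lowest p, and all 4 were lower in the activated lines (adjusted p of at most 0.00272).

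Of 20 substrates of PIM kinases, 1 rose and 3 fell with NEO2734, a share near the 20.5% of all tested genes, and 1 rose and 2 fell without the 3 libraries. MYB fell by 1.78 ± 0.26 on the log2 scale (adjusted p = 9.27e-06), MYC fell as above, CDKN1B (p27) rose by 0.42 ± 0.11 (adjusted p = 0.00463) and MAP3K5 fell by 0.54 ± 0.19 (adjusted p = 0.0383, and 0.0762 without the 3 libraries). In DMSO 1 substrate was higher and 5 were lower in the activated lines, with and without the 3 libraries, a share near the 29% of all tested genes. Those of lowest p were MAP3K5 (-2.30 ± 0.26), MYB (-3.15 ± 0.37), FOXO3 (-2.50 ± 0.36) and AKT1S1 (1.66 ± 0.36), with adjusted p of at most 0.000789.

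The fifth list held inducers of IL6 and IL10 transcription, and 1 of 18 rose and 6 fell with NEO2734, where 20.5% of all tested genes were called. Without the 3 libraries 0 rose and 5 fell. MYD88, the adaptor of Toll-like receptors, fell by 0.73 ± 0.11 on the log2 scale (adjusted p = 1.24e-05), its kinase partner IRAK1 by 0.98 ± 0.17 (adjusted p = 0.000125), TLR7 by 1.67 ± 0.34 (adjusted p = 0.000582) and BTK by 0.68 ± 0.16 (adjusted p = 0.00323). In TMD8 alone, where IL10 fell, 2 of the 18 fell, where 2.17% of all tested genes were called, MYD88 by 1.47 ± 0.22 (adjusted p = 0.000201) and TLR7 by 2.57 ± 0.65 (adjusted p = 0.0292). In DMSO 6 of the 18 were higher and 3 lower in the activated lines, with and without the 3 libraries, where 29% of all tested genes were called. IRAK1 was lower (-1.50 ± 0.24), and MYD88 (0.86 ± 0.15), BCL10 (1.02 ± 0.20) and NFKBIZ (1.89 ± 0.41) were higher, with adjusted p of at most 0.000681. NFKBIZ encodes a co-activator that NF-kB needs for IL6, and BCL10 a bridge from the B cell receptor to NF-kB.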

How the data were processed

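RNA of 39 libraries was extracted with Trizol and prepared with an Illumina TruSeq RNA kit, per the labels' protocols. Gene counts, as whole numbers, were deposited in 2 versions that were equal in 38 of 39 libraries, and the one called raw was analysed. The library that differed was OCILy10 CB103 replicate 1. STAR, edgeR and hg38 appear in the submitters' processing notes. Counting program, annotation, strandedness and tool versions: not given in the sources used here. Symbols were matched by gene ID for 15590 of 15808 IDs.

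One edgeR 4.0.16 fit in R 4.3.3 (quasi-likelihood, TMM, filterByExpr by group, a coefficient per group, 26 residual degrees of freedom) gave all contrasts. Called means a Benjamini-Hochberg adjusted p under 0.05 over 12814 genes, and ± after a log2 value is its SE. Low counts were compared as sums with 95% exact binomial intervals and a floor of 3 counts over the group. A gene was private to a line if it was above 10 CPM in all of that line's libraries and under 1 CPM in 90% of the others, from 36 libraries.

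On simulated counts the NEO2734 contrast in TMD8 found 62% of genes lowered 4-fold and 20% of those lowered 2-fold, with 5 false calls among 80, over 12355 genes. Replicate numbers were taken to pair libraries where every pair's deviations correlated above 0.1. This held in 5 of 9 within-line contrasts: NEO2734 and OTX015 in DOHH2 (r from 0.262 to 0.895) and TMD8 (0.327 to 0.891), and NEO2734 in OCILy10 (0.785 to 0.882). It did not hold with either bromodomain inhibitor in Toledo, nor with OTX015 or CB103 in OCILy10. Block values that include these contrasts are not backed by the check.

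Members and lists were chosen with earlier results of these data known. Each comparison gives all members by value, or some by the range or the count of calls, and from each list up to 4 called genes of lowest p for NEO2734 (mean of the lines) and for DMSO. One gene that this rule names is not reported here. Likeness names the 3 highest r over the group means among genes of at least 5 CPM in a group, from log2 CPM with a prior count of 2. Alternatives were other scalings, DESeq2 1.42.0, limma 3.58.1 (voom), no filter, the replicate block, 2 depth classes split at 5000000 counts, the other deposited table and leaving libraries out.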

Additional observations from a re-analysis of the deposited data

Results flagged for a closer look

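IL10RA with NEO2734 was higher than DMSO in every DOHH2 library (log2 change 0.52) and lower in every OCILy10 library (-0.71), and it was listed here because the libraries of these lines lay on opposite sides of their controls. In DOHH2 the gap was slight, with 13.07 CPM in the lowest NEO2734 library against 13.04 in the highest DMSO library. With NEO2734, 18.4% of all tested genes in DOHH2 and 20% in OCILy10 had groups that do not overlap. Neither IL10RA change passed the test in its own line. The direct difference between this pair of lines was not tested, and an F-test over the 4 lines gave an adjusted p of 0.676 (unadjusted 0.0309), so that a difference was not shown. DOHH2 NEO2734 replicate 3, which held OCILy10 genes, had the highest IL10RA value of its group, and without the 3 libraries the DOHH2 change was 0.45.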

How the results depend on the processing

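The count of members higher in the activated lines in DMSO was 6 whichever library was left out, and 7 of 8 differed among the lines in each such fit. Of the 23 alternatives for STAT3 and for PIM2, 22 kept each call. Both were lost in the shallower class, the libraries under 5000000 counts, with adjusted p of 0.0573 and 0.0828. The PIM3 F-test over the lines was lost in that class and with the other deposited table.

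The counts of members called with a compound were less stable. For NEO2734 in TMD8 (1 with all libraries) the count was 2 with the replicate block, with the depth class as a covariate and with the block without the 3 libraries with another line's genes. It was 0 in the shallower or the deeper class, with the other deposited table and with the libraries of the line only. For OTX015 in TMD8 (0) it was 1 with the block, without the 3 libraries and with the depth covariate, and 2 with the block without the 3 libraries. For NEO2734 in Toledo (1) it was 2 with DESeq2 and with the depth covariate. It was 0 with limma-voom, the block, either depth class, the other table, the line only, and without the 3 libraries with or without the block. For OTX015 in Toledo (2) it was 1 without a filter and with the other table. It was 0 with limma-voom, either depth class, the line only, and without the 3 libraries with or without the block. For the mean of the lines, NEO2734 (0) gave 1 with DESeq2 and with the block, and OTX015 (1) gave 0 with limma-voom, either depth class, and without the 3 libraries with or without the block. With the block and without the 3 libraries, the difference of the NEO2734 response between the types (0) and the F-test of that response over the lines (0) each gave 1.

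Leaving out single libraries gave 0 to 1 members for NEO2734 in DOHH2 and TMD8 and for OTX015 in TMD8, 0 to 4 for either compound in Toledo, 0 to 3 for the NEO2734 mean and 0 to 2 for the OTX015 mean.

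Signs turned in Toledo. With NEO2734 and without the 3 libraries the log2 changes were 3.78 for IL10, 0.45 for IL10RA, 1.00 (0.995) for STAT3 and 0.43 for PIM1. In the deeper class they were 4.82 for IL10, 0.74 for STAT3 and 0.55 for PIM1. With the block and without the 3 libraries they were 4.09, 0.45 (0.445), 1.09 and 0.38 for IL10, IL10RA, STAT3 and PIM1. These IL10 values rest on at most 5 counts with NEO2734 against 0 with DMSO, and their size depends on the prior count. With OTX015 and without the 3 libraries they were 0.33 for IL10RA, 0.73 for STAT3 and 0.53 for PIM1, and in the deeper class 0.065, 0.56 and 0.56 (0.555). With the block and without the 3 libraries they were 0.32 for IL10RA, 0.80 for STAT3 and 0.48 for PIM1. That fit also gave 0.18 for IL10 and 0.23 for SOCS3. Both genes had 0 counts in both groups there, so these values show no change. In the mean of the lines IL10RA with NEO2734 was 0.016 without the 3 libraries, and in the deeper class PIM1 was 0.015 with NEO2734 and 0.026 with OTX015.

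Leaving out single libraries gave, for NEO2734 in Toledo, from -4.99 to 3.76 for IL10, from -2.48 to 0.47 for IL10RA, from -1.70 to 1.01 for STAT3 and from -1.68 to 0.43 for PIM1. For OTX015 in Toledo it gave from -2.61 to 0.39 for IL10RA, from -1.97 to 0.79 for STAT3 and from -1.59 to 0.57 for PIM1. The NEO2734 mean ran from -0.68 to 0.034 for IL10RA and from -0.48 to 0.026 for PIM1. Each of these upper values came without Toledo DMSO replicate 2, and the one for IL10 rests on 5 counts against 0. The STAT3 difference between the types under NEO2734 ran from -1.32 without that library to 0.041 without Toledo DMSO replicate 1. The other deposited table differed in OCILy10 CB103 replicate 1 alone. Counts of the other lines were thus the same in both tables, and only the shared fit differed for them. The cause of the changes with depth class and tool was not tested, nor which part of the shared fit moved the calls with the other table.

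Replicate numbers were taken to pair the libraries in 5 of 9 within-line contrasts, in which the pairs were also of the same depth class. Correlations between libraries of different numbers were not examined, so the check cannot tell pairing from depth. In the block fit the IL10 mean with NEO2734 was -1.86 (adjusted p = 0.0387), and -0.24 (adjusted p = 0.839) in that fit without the 3 libraries. Both values include Toledo, where the check of pairing was not met. Leaving out single libraries gave the IL10 mean from -2.35 to -0.14 without the block. Without Toledo DMSO replicate 2 its Toledo part rests on 5 counts against 0.

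Over all genes the counts of calls also moved. For NEO2734 in TMD8 (278) they were 418 with DESeq2, 751 with the block, 92 and 0 in the lower and higher depth class, 769 with the depth covariate and 148 with the other table. For OTX015 in TMD8 (50) they were 128, 230, 5, 0, 236 and 12 in that order. Depth limits IL6 and the germinal centre lines' IL10 and SOCS3, which rest on few counts.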
